A study of Mus musculus with 4 samples.

Results

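A set of 47 genes of the lysosome and of the proton pump that acidifies it was followed in mouse prostate spheres grown with or without DAPT. Its rule is a list of gene symbols with no measured value in it. This list and the others used here were chosen with earlier results of these data known. Shares of a list set beside all genes therefore describe it and are not a test of it. It holds 15 genes of the vacuolar proton pump, 9 of cathepsins and other peptidases, 8 of glycosidases, 5 of lipid hydrolases, activators and carriers, 7 of membrane proteins and 3 of a regulator and cargo class. Of the 47, 46 had a named probe on the array, and all 46 were kept for testing among 21477 genes in all, 13998 of them with a symbol. Cd68 had no named probe and was not analysed here.

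The study asked what loss of Notch signalling does to prostate basal cells. Adult basal cells of FVB mice, for which the labels name no allele, were sorted by flow cytometry and grown as spheres in culture, an assay in which single cells form balls of progeny. DAPT, an inhibitor of the gamma-secretase protease that releases the active part of Notch receptors and of other membrane proteins, was given at 5 µM, and the controls received the solvent DMSO, called vehicle below, with the medium changed every 24 hours in both. Each group had 2 samples, and the labels do not say whether these came from separate mice or cultures. The p-values and standard errors rest on how far these samples lie apart, combined with the typical spread over all genes. Both spreads may be technical in origin.

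Lysosomes are acidic organelles that break down proteins, sugar chains and lipids delivered by endocytosis and autophagy. Their acidity comes from the vacuolar proton pump, in which a soluble V1 part splits ATP and drives a membrane-embedded V0 part that carries protons. Many lysosomal genes share a short DNA element near their start, known as CLEAR, to which transcription factors of the MiT family such as TFEB bind. Cathepsin D and other lysosomal enzymes are abundant in secretory epithelia, the prostate among them.

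Each of the 4 arrays carried sphere RNA labelled red and, labelled green, a common reference from Stratagene, Universal Mouse Reference RNA. Values are log2 ratios of sphere over reference after background correction and loess normalization within each array, so 1 unit is a doubling and 0 means the same brightness as the reference. A change is the DAPT mean minus the vehicle mean of these log2 ratios. Between 63.7% and 69.5% of probe spots on an array were well above background in red, and no probe spot was saturated. The 6 basal markers, Krt5 and Krt14 among them, were well above background on all 4 arrays. The 4 arrays lay on 1 slide and were scanned together, but the vehicle arrays took positions 4 and 3 and the DAPT arrays positions 2 and 1, so position and treatment cannot be told apart.

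Most of the lysosome and pump genes had lower ratios with DAPT. Of the 46, 45 had a change below 0, which is 97.8% against 56.7% of all genes tested, and their median change was -0.53 against -0.06. Past an adjusted p of 0.05, 11 of the 46 fell and 0 rose, which is 23.9% lower beside a background of 3.99% lower and 2.83% higher over all genes, or 6.82% in either direction. At an unadjusted p under 0.05, 26 were lower, beside a background of 13.2%. Both DAPT arrays lay below both vehicle arrays for 31 members, or 67.4% beside a background of 31.9%, and above them for 0, beside 21.8%. Against the reference, 39 of the 46 had a mean log2 ratio above 0 with vehicle and 35 with DAPT. The falls were moderate: 2 members, Ctsb and Ctsc, were at least 2-fold lower. The samples are bulk RNA, so fewer cells of one kind and less RNA per cell cannot be told apart.

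The 11 calls depend on the normalization and on single arrays. With the scanner software's processed intensities 1 member passed (2.17%, beside 1.03% of all genes lower). With median centring in place of loess 1 passed (2.17%, beside 2.45%), and in both cases it was Ctsc. With median centring the share of members lower was thus not above that of all genes. Median centring moved the median of all genes from -0.06 to 0.11, and the members' median then stood at -0.18, that is -0.29 relative to all genes, with 32 of 46 below 0. Fewer members passed without the vehicle 2 array, which leaves 1 vehicle sample. The median of the 46 was then -0.45 against -0.04 for all genes, with 37 of 46 below 0. With 13 spots of debris on the DAPT 2 array kept in, 0 of the 46 passed in limma's test, beside 0.372% of all genes lower. Their median was then -0.63 against -0.04 for all genes, and 28 were lower at an unadjusted p under 0.05, beside 8.06%.

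**Figure D1:**
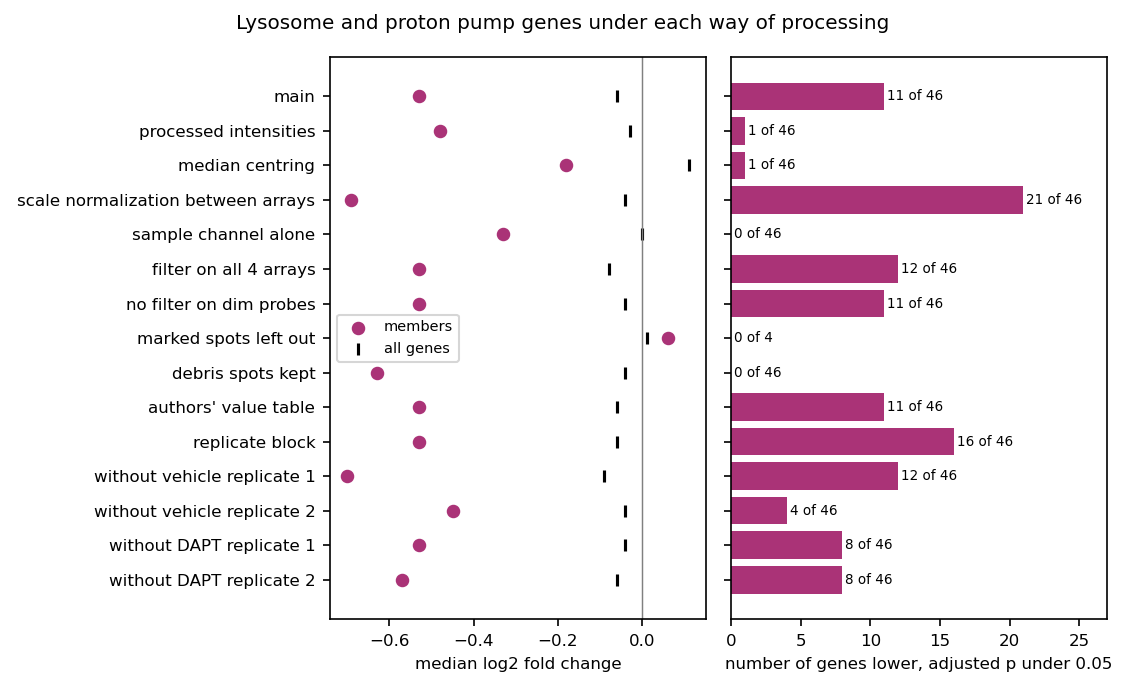
The left panel plots the median log2 fold change, DAPT over vehicle, of the lysosome and pump genes (circles) and of all genes tested (ticks) under each way of processing, and the right panel plots as bars how many members were lower at an adjusted p under 0.05. The members' median lies below that of all genes in every row apart from that with marked spots left out, where only 4 members could be tested, and the count runs from 0 to 21.

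**Figure D2:**
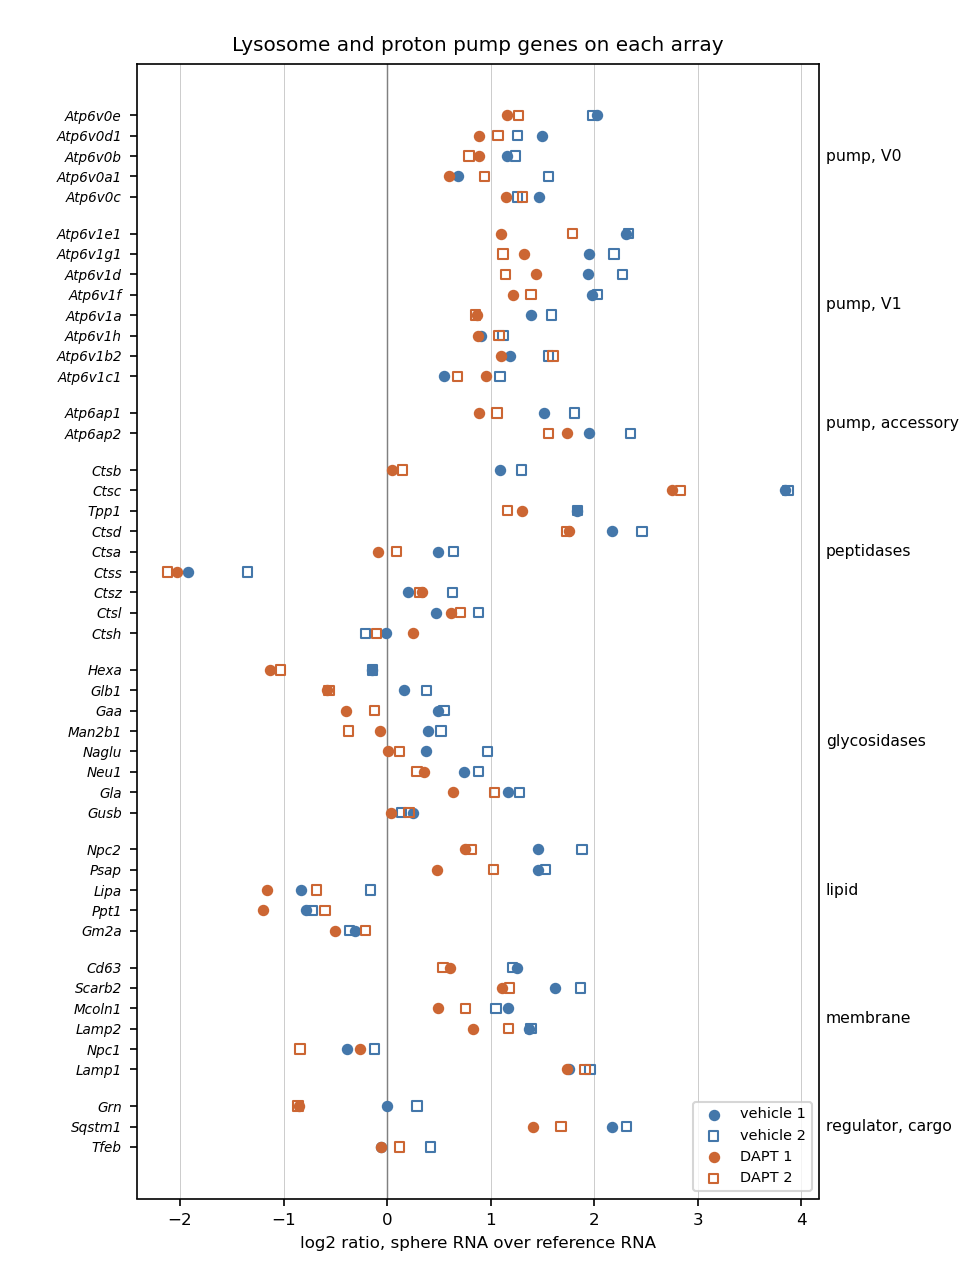
The horizontal axis is the log2 ratio of sphere over reference RNA on each of the 4 arrays, with 1 gene per row grouped by class, vehicle in blue, DAPT in orange, replicate 1 as filled circles and replicate 2 as open squares. All 15 pump genes lie above 0 on all arrays, and for 31 of 46 genes both orange marks lie left of both blue ones.

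The promoters of 40 of the 47 genes were in the RefSeq table of build GRCm38.p6, as 300 bases from 250 before to 50 after each annotated start. The core of the CLEAR element, CACGTG, which reads the same on both strands and is also the E-box bound by other factors, was in a promoter of 13 of these 40 genes (32.5%) against 8.09% of the 27025 genes in the table. The longer GTCACGTG or its reverse complement CACGTGAC, each of which holds CACGTG, was in 9 (22.5%) against 2.55%. GTCACGTG followed by AC, the full palindrome, was in 0 of the 40 against 0.37%. Of the 9 members that fell and had a promoter in the table, 3 held CACGTG, and their promoters are shown first, with every CACGTG in capitals. Those of Ctsa and Lamp1 are shown for contrast, because they hold several copies and their genes did not pass the test. All 5 are on the plus strand: Atp6v0e at chr17:26676146-26676445, Gaa at chr11:119267713-119268012, Glb1 at chr9:114400828-114401127, Ctsa at chr2:164833523-164833822 and Lamp1 at chr8:13158911-13159210.
Atp6v0e: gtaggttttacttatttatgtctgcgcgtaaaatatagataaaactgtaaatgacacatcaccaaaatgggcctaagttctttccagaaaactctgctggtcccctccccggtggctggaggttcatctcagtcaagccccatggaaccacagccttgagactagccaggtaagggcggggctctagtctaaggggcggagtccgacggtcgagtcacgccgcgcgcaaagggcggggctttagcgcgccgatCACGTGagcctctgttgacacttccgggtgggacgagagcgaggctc
Gaa: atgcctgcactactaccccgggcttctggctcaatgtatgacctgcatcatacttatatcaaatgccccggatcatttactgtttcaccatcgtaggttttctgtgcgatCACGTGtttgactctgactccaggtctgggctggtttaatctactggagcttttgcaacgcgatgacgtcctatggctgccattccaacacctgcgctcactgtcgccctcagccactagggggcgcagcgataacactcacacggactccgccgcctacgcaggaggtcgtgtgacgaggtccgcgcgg
Glb1: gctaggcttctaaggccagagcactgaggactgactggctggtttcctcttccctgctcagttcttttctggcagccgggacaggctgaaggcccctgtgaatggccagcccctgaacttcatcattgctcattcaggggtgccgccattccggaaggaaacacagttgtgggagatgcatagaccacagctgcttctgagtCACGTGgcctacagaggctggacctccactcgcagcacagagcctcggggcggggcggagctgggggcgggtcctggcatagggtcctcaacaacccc
Ctsa: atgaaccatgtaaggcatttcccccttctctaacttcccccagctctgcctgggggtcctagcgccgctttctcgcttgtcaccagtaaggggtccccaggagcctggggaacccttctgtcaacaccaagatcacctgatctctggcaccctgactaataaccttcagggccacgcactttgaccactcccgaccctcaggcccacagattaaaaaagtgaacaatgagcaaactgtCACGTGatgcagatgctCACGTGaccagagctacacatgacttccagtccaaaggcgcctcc
Lamp1: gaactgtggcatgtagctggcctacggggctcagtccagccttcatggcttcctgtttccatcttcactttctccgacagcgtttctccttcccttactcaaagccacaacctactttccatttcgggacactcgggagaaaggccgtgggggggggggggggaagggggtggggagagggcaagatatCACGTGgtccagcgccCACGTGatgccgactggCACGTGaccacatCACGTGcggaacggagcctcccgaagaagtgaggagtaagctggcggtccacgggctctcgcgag
In Lamp1, 4 copies begin 61, 45, 28 and 15 bases before the start, and the log2 change of that gene was -0.03. Ctsa holds 2 copies, and its log2 change was -0.56. The 13 members with CACGTG had a median log2 change of -0.56, from -0.84 to -0.01, and 3 of them fell. The 26 measured members whose promoters held none had a median of -0.60, from -1.07 to -0.02, and 6 fell. A match is a description of the sequence and not a test of binding.

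The V0 part, which forms the proton path in the membrane, had 1 of its 5 measured genes lower with DAPT. The background for this count and for those of the classes below is 3.99% of all genes lower. Atp6v0e, a small membrane subunit, had log2 ratios of 2.03 and 1.98 with vehicle and of 1.16 and 1.27 with DAPT. Both DAPT arrays were below both vehicle arrays, a change of -0.79 ± 0.19 (SE, n = 2 a group), or 1.73-fold lower (adjusted p = 0.0287). Leaving out any one of the 4 arrays ended this call, with adjusted p-values of 0.0507 to 0.0898. The other 4 did not pass: the changes were -0.40 for Atp6v0d1, -0.36 for Atp6v0b, -0.35 for Atp6v0a1 and -0.13 for Atp6v0c, which encodes the proteolipid of the rotating ring. The median of the 5 was -0.36. It was 0.10 with median centring, where the median of all genes was 0.11. With the red signal taken alone and quantile-normalized between arrays it was 0.24, against 0 over all genes.

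The V1 part, which splits ATP, had 3 of its 8 genes lower. Atp6v1g1, a stalk subunit, had log2 ratios of 1.95 and 2.19 with vehicle and 1.32 and 1.12 with DAPT, a change of -0.85 ± 0.20, or 1.80-fold lower (adjusted p = 0.0254). Atp6v1d, part of the central rotor, had 1.94 and 2.27 against 1.44 and 1.14, a change of -0.81 ± 0.21, or 1.75-fold lower (adjusted p = 0.0389). Atp6v1e1, another stalk subunit, had 2.31 and 2.33 against 1.10 and 1.79, a change of -0.88 ± 0.24, or 1.84-fold lower (adjusted p = 0.0441). For each of these 3 genes the groups did not overlap, but the DAPT arrays of Atp6v1e1 lay far apart, and without DAPT 1 its adjusted p was 0.269. Without vehicle 2, the adjusted p was 0.088 for Atp6v1g1, 0.145 for Atp6v1d and 0.0703 for Atp6v1e1, and without DAPT 2 it was 0.106 for Atp6v1g1 and 0.18 for Atp6v1d. A second probe of Atp6v1g1 gave a change of -0.17 (adjusted p = 0.655).

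The remaining V1 genes fell into a pair close to the threshold and 3 near 0. Atp6v1f, a rotor subunit, changed in value by -0.70 (adjusted p = 0.0505), and Atp6v1a, the catalytic subunit, by -0.63 (adjusted p = 0.073). Atp6v1h stood at -0.03, Atp6v1b2 at -0.02 and Atp6v1c1 at 0.00 on the log2 scale. Subunits of one complex thus gave values from -0.88 to 0.00, with standard errors of 0.19 to 0.24. The median over the 8 was -0.66, and it was -0.22 with median centring, or -0.33 relative to all genes.

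Of the 2 accessory proteins, neither passed. Atp6ap1, which helps to assemble and sort the pump, had log2 ratios of 1.51 and 1.81 with vehicle and 0.89 and 1.06 with DAPT, a change of -0.68 ± 0.20 (adjusted p = 0.0636). Atp6ap2, the prorenin receptor, had 1.95 and 2.35 against 1.74 and 1.56, a change of -0.50 ± 0.21 (adjusted p = 0.179). In both genes the DAPT arrays were the lower ones without overlap. Over all 15 pump genes 4 fell, the median change was -0.50, and every gene stayed above the reference on the mean of both groups.

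Among the 9 peptidases 2 fell, and they had the largest changes of the set. Ctsc, encoding cathepsin C, a dipeptidyl peptidase that activates serine proteases of immune cells, had log2 ratios of 3.84 and 3.87 with vehicle and 2.75 and 2.83 with DAPT. Its change was -1.07 ± 0.19, or 2.09-fold lower (adjusted p = 0.00673). The arrays of each group read nearly the same, and the call held without any one of the 4 arrays. Ctsb, encoding cathepsin B, a broadly acting cysteine protease, had 1.09 and 1.30 against 0.05 and 0.15, a change of -1.09 ± 0.20, or 2.13-fold lower (adjusted p = 0.00681). A second probe of Ctsb did not show this: it read -0.68 and -0.34 with vehicle and -0.51 and 0.10 with DAPT, a change of 0.31 (adjusted p = 0.471).

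The other 7 peptidases did not pass. Tpp1, the tripeptidyl peptidase lost in a childhood storage disease, changed in value by -0.61 (adjusted p = 0.0811), Ctsd, the aspartic protease cathepsin D, by -0.57 and Ctsa, which shields other lysosomal enzymes, by -0.56. Ctss, known from antigen-presenting cells, was below the reference on all arrays at -1.92 and -1.35 with vehicle and -2.03 and -2.12 with DAPT, a change of -0.44. Ctsz stood at -0.09 and Ctsl at -0.01. Ctsh, an aminopeptidase, was the only member with a positive value, 0.18 (adjusted p = 0.646), with ratios of -0.01 and -0.21 against 0.25 and -0.10 that overlapped between the groups. The median of the 9 was -0.56, and it was -0.10 with median centring, or -0.21 relative to all genes.

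Glycosidases, which take sugar chains apart, had 3 of 8 genes lower. Hexa, the alpha subunit of beta-hexosaminidase, had log2 ratios of -0.15 and -0.14 with vehicle and -1.13 and -1.03 with DAPT, a change of -0.93 ± 0.19, or 1.91-fold lower (adjusted p = 0.0131). The fall of Hexa is in the ratio: its red signal changed in value by -0.05 and its green signal by 0.88, and the direction turned to 0.03 with the red signal alone quantile-normalized. Glb1, the beta-galactosidase whose activity is used as a stain for senescent cells, had 0.16 and 0.38 against -0.58 and -0.56, a change of -0.84 ± 0.20, or 1.79-fold lower (adjusted p = 0.0236). Gaa, the acid glucosidase that degrades glycogen, had 0.49 and 0.55 against -0.40 and -0.12, a change of -0.78 ± 0.20, or 1.72-fold lower (adjusted p = 0.036). In each of the 3 the sphere RNA was below the reference on both DAPT arrays and clear of the vehicle arrays. Without vehicle 2 the adjusted p was 0.0823 for Glb1 and 0.0836 for Gaa, and it was 0.0541 for Glb1 without DAPT 2 and 0.16 for Gaa without DAPT 1.

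The other 5 glycosidases did not pass. Their changes were -0.67 for Man2b1, an alpha-mannosidase (adjusted p = 0.0663), -0.61 for Naglu, which acts on heparan sulfate, -0.48 for the sialidase Neu1, -0.38 for the alpha-galactosidase Gla and -0.07 for the beta-glucuronidase Gusb. For 7 of the 8 glycosidases both DAPT arrays were below both vehicle arrays, beside a background of 31.9%. The median was -0.64, and it was -0.30 with median centring, or -0.41 relative to all genes.

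Of 5 genes that handle lipids 1 fell. Npc2, the soluble protein that hands cholesterol to the membrane, had log2 ratios of 1.46 and 1.88 with vehicle and 0.75 and 0.81 with DAPT. The change was -0.89 ± 0.21, or 1.85-fold lower (adjusted p = 0.0252), and the adjusted p was 0.117 without vehicle 2. Psap, the precursor of the saposins, stood at -0.74 (adjusted p = 0.0664). Lipa, the acid lipase, stood at -0.43, Ppt1, a palmitoyl-protein thioesterase, at -0.15 and Gm2a, the GM2 activator, at -0.02. Both DAPT arrays lay below both vehicle arrays for 2 of the 5, beside the background of 31.9%. The median of the 5 was -0.43, and it was -0.12 without vehicle 2, -0.19 without DAPT 1, -0.76 without vehicle 1 and -0.67 without DAPT 2. With median centring it was -0.26, or -0.37 relative to all genes.

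None of the 6 measured membrane proteins passed. Cd63, a tetraspanin of late endosomes, had log2 ratios of 1.25 and 1.21 with vehicle and 0.61 and 0.54 with DAPT, a change of -0.66 ± 0.19 (adjusted p = 0.0608). Scarb2, the receptor that carries glucocerebrosidase to the lysosome, had 1.62 and 1.87 against 1.11 and 1.18, a change of -0.60 ± 0.20 (adjusted p = 0.0919). The groups did not overlap for either gene, though a second probe of Scarb2 gave a change of 0.29. Mcoln1, a calcium channel, stood at -0.49, Lamp2 at -0.38 and Npc1, the membrane partner of Npc2, at -0.29. Lamp1, a main protein of the lysosomal membrane, stood at -0.03 with a 95% confidence interval from -0.46 to 0.40.

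In the last class, Grn fell. Grn encodes progranulin, a secreted protein that is cut into granulins in the lysosome, and its log2 ratios were 0.00 and 0.29 with vehicle and -0.85 and -0.86 with DAPT. The change was -0.99 ± 0.20, or 1.99-fold lower (adjusted p = 0.0118). Its second probe gave -1.08 (adjusted p = 0.00807 over all probes). Sqstm1, the autophagy cargo receptor p62, had 2.17 and 2.31 against 1.41 and 1.68, a change of -0.69 (adjusted p = 0.0575). Tfeb, the regulator of lysosomal genes named above, stood at -0.15 (adjusted p = 0.728).

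**Figure D3:**
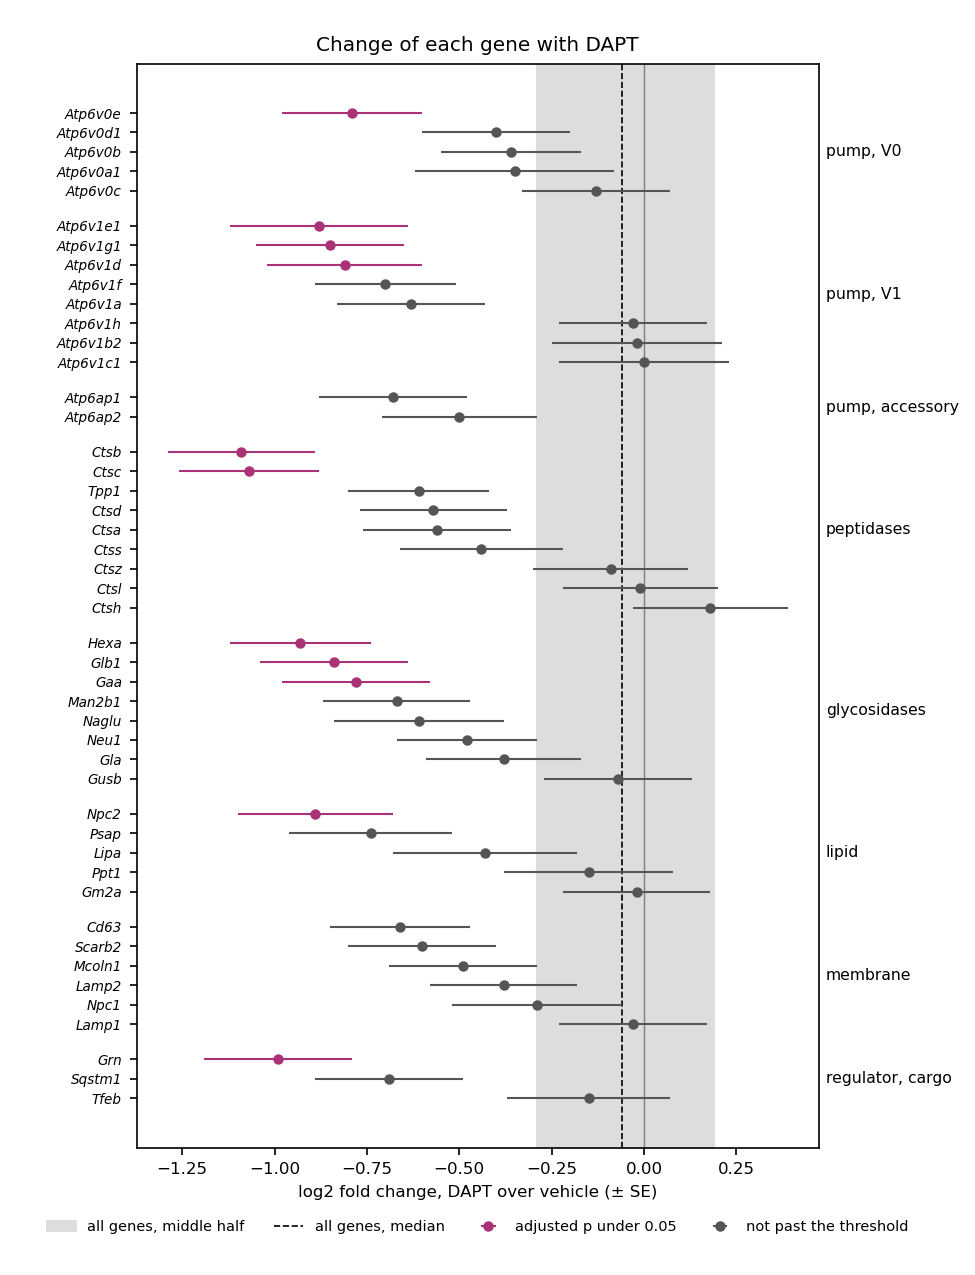
The horizontal axis is the log2 fold change, DAPT over vehicle, of each of the 46 genes with its standard error as a line, grouped by class, with genes past an adjusted p of 0.05 in purple, a grey band between the quartiles of all genes and a dashed line for their median. The 11 purple points lie between -1.09 and -0.78, left of the band, and only Ctsh, at 0.18, lies clearly above 0.

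The ratio has both channels in it, so each was also fitted on its own after adjustment between arrays. In red, the sphere RNA, 38 of 46 members were lower with DAPT (82.6%), with a median change of -0.38 against -0.04 for all genes. Both DAPT arrays were below both vehicle arrays in red for 21 members, or 45.7% beside a background of 25.1%, and above them for 1, beside 21.5%. Past an adjusted p of 0.05 there were 0 members, beside 0.00466% of all genes, which is 1 gene. At an unadjusted p under 0.05, 9 members were lower in limma's test, or 19.6% beside a background of 5.9%, and 0 were higher, beside 6.29%.

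In green, the common reference that should be the same on every array, the members' median change was 0.13 against 0.04 for all genes. There 0 members and 0% of all genes passed an adjusted p of 0.05, and at an unadjusted p under 0.05 the numbers were 2 members and 1722 genes (8.02%). In 14 members, 3 of them among the 11 that fell, the change was larger in green than in red. Hexa is the clearest case, with -0.05 in red and 0.88 in green, and its log2 red signals of 10.03 and 8.71 with vehicle enclosed the 9.33 and 9.30 with DAPT. Ctsb gave -0.52 in red and 0.57 in green, and Atp6v0e gave -0.38 and 0.42.

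The other 8 members that fell moved more in red than in green. Npc2 gave -0.84 in red and 0.05 in green, Atp6v1d -0.87 and -0.06, Atp6v1g1 -0.82 and 0.03, Gaa -0.69 and 0.09, and Ctsc -0.77 and 0.29. All 11 had a red change below 0 in this fit, which keeps the loess step. In 9 of them both DAPT arrays were below both vehicle arrays in red, beside 25.1% of all genes. The 11 were picked by a lower ratio on these same arrays, which holds the red signal, so this is not separate support. Of the V0 genes 1 of 5 had a red change below 0, with class medians of 0.14 in red and 0.47 in green, and with red standard errors of 0.37 to 0.63 none of the 5 stood apart from 0. Tpp1 had a change of -1.70 in red and also of -1.10 in green, and Ppt1 of -1.29 and -1.14, so that their ratios moved less than either channel.

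**Figure D4:**
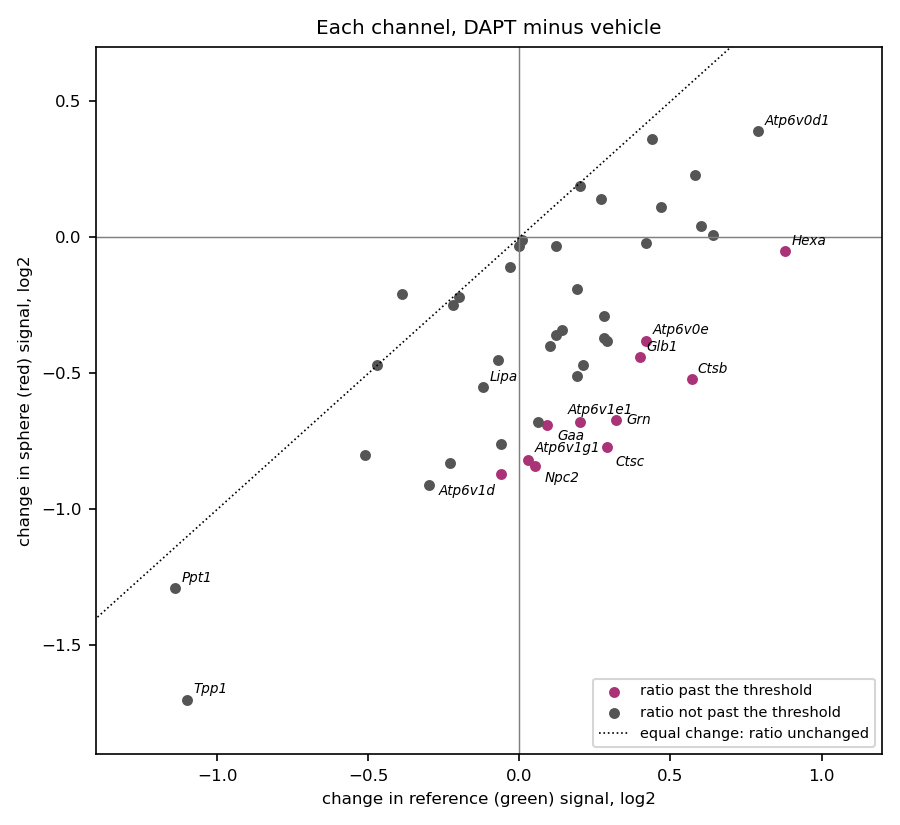
The horizontal axis is the log2 change of the green (reference) signal and the vertical axis that of the red (sphere) signal, DAPT minus vehicle, 1 point per gene, with genes whose ratio passed the threshold in purple and a dotted line where both changed equally. The points lie mostly below the dotted line, and Hexa sits at -0.05 in red and 0.88 in green.

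For 19 members the array held a second probe that was kept, 20 probes in all. The change had the same sign as that of the reported probe for 16 of the 20 and the opposite sign for 4, which were those of Atp6v0a1 (0.31), Ctsb (0.31), Scarb2 (0.29) and 1 of the 2 of Ctsa (0.56). Among the genes that fell, the second probe gave -0.68 for Atp6v1e1 (adjusted p = 0.0911) and -0.50 for Glb1 (adjusted p = 0.142). A probe of another Lamp2 transcript gave a change of -0.86 (adjusted p = 0.0338), against -0.38 for the reported one. Why probes of one gene differ was not tested.

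The members are bright genes, and bright genes were lower with DAPT more often. Of all genes, split by brightness into 5 equal groups, 5.8% of the brightest group fell and 68.2% of it had a change below 0, with a median of -0.15. That group held 23 members, of which 6 fell, with a median of -0.61. The next group had a median of -0.12 over all genes, of which 5.61% fell, and of -0.55 over 14 members with 3 that fell. The middle group had -0.08 over all genes, of which 4% fell, and -0.34 over 8 members with 2 that fell. The scanner software marked spots as non-uniform or as outliers more often on the DAPT arrays, 49.6% and 50.9% against 11.5% and 29.2%. Of the members, 43 had a marked spot on both DAPT arrays and 20 on neither vehicle array, and the part of these marks in the changes was not tested.

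A wider list of 114 genes of lysosomes, autophagy and late endosomes had a median change in the same direction, smaller in size and not shared by every class. Of its 106 measured genes 14 fell (13.2%) and 0 rose, 74 (69.8%) had a change below 0, and the median was -0.23. The same values over all genes were 3.99% lower, 56.7% below 0 and a median of -0.06. With median centring the list's median was -0.03 against 0.11 over all genes, with 54 of 106 below 0. Class medians were -0.01 for late endosome fusion, -0.04 for mannose 6-phosphate sorting and -0.06 for other pump isoforms. In the other classes they ran from -0.47 to -0.14. By class, 4 of 28 other hydrolases and activators fell, 4 of 18 autophagy genes, 2 of 16 other membrane proteins, 1 of 6 genes of mannose 6-phosphate sorting, 1 of 16 of MiT regulators and mTORC1 machinery, 1 of 3 cathepsin inhibitors and 1 of 12 for late endosome fusion. Of the 7 other pump isoforms 0 fell. The one highest in value among them, Atp6v1c2, stood at 0.74 (adjusted p = 0.0502).

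Among the further hydrolases, Ctsk, the collagen-degrading cathepsin of bone-resorbing cells, had log2 ratios of 3.04 and 2.55 with vehicle and 1.37 and 1.32 with DAPT, a change of -1.45 ± 0.22 (adjusted p = 0.002). Lgmn, the protease that matures cathepsins, changed by -1.19 (adjusted p = 0.00672). Cst3, the secreted cathepsin inhibitor cystatin C, changed by -0.81 (adjusted p = 0.035). Among the autophagy genes, Atg12, a ubiquitin-like protein, had 0.52 and -0.12 against -1.39 and -1.89, a change of -1.84 ± 0.25 (adjusted p = 0.00115). Gabarapl1 had 1.81 and 2.15 against 0.34 and 0.70, a change of -1.46 ± 0.22 (adjusted p = 0.00199), and Map1lc3b, which encodes LC3B, changed by -1.09 (adjusted p = 0.00987). None of these groups of values overlapped, where 31.9% of all genes had both DAPT arrays below both vehicle arrays. These genes were named for their small p on the same arrays, so this is not separate support.

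The sorting receptor Igf2r, which brings enzymes to the lysosome, changed by -0.98 (adjusted p = 0.0118). Rragd, a GTPase that recruits mTORC1 to the lysosome, changed by -0.95 (adjusted p = 0.0137). Vamp8, a fusion protein of late endosomes, changed by -1.11 (adjusted p = 0.00796), the calcium channel gene Tpcn1 by -0.86 (adjusted p = 0.0236) and Cln3, a membrane protein lost in a storage disease, by -0.84 (adjusted p = 0.0296). Outside the rule for naming were Gabarap at -0.88 (adjusted p = 0.0357) and Sgsh, a sulfatase, at -0.79 (adjusted p = 0.0408), and they were chosen after their values were seen.

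Several lysosomal enzymes are abundant in fibroblasts and macrophages, so markers of the other cells that spheres could hold were read on the same arrays. Of 11 fibroblast and smooth muscle markers 7 fell, with a median of -1.16. Their changes ran from -2.39 for Postn to 0.16 for Lum, which did not pass. The summed red signal of the list was 73900 and 84300 with vehicle and 56000 and 61800 with DAPT. Acta2, whose ratio change was -0.04, gave most of it, and without Acta2 the sums were 20400 and 26500 against 9170 and 10400. Of 12 measured macrophage and leukocyte markers of 15 listed 0 fell, 11 had a change below 0 and the median was -0.18. These 12, Csf1r and Adgre1 among them, were well above background on all 4 arrays, while C1qc was so on none. The summed red signal of the list was 5950 and 8380 with vehicle and 5980 and 7250 with DAPT. Of 6 basal markers 1 fell, of 5 measured luminal ones 2, of 2 endothelial ones 0 and of 3 neuroendocrine ones 1. The background for all these marker counts is 3.99% of all genes lower. The summed signals were 234000 and 133000 against 138000 and 133000 for basal markers, 179000 and 104000 against 86700 and 95300 for luminal ones, 928 and 1420 against 1060 and 1100 for endothelial ones, and 1210 and 2260 against 1020 and 1100 for neuroendocrine ones. The luminal gene Pbsn and the endothelial genes Cdh5, Kdr and Tek were on no array above background. Changes below 0 were found for 10 of 11 fibroblast and smooth muscle markers, 11 of 12 macrophage and leukocyte ones and 5 of 5 luminal ones. For basal markers the number was 2 of 6, for endothelial ones 1 of 2 and for neuroendocrine ones 1 of 3, beside 56.7% of all genes. These are counts of ratios. In red, changes below 0 were found for 10 of 11 fibroblast and smooth muscle markers, 7 of 12 macrophage and leukocyte ones and 3 of 5 luminal ones. Their median changes were -0.60, -0.12 and -0.41 in red and 0.38, 0.16 and 0.18 in green. For basal markers the number below 0 in red was 3 of 6, for endothelial ones 1 of 2 and for neuroendocrine ones 2 of 3. The part of any of these cells in the result was not tested.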

How the data were processed

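The members and all lists were chosen with earlier results of these data known. Per the file headers, Feature Extraction 10.7.3.1 wrote each scanner file, with median spot and local background intensity in both channels, not normalized, and processed intensity values. The files' own log10 ratio, deposited as the scanner software wrote it, served only to find the scale of the authors' value table, whose deposited log2 values cover the same spots. Its direction is sphere over reference (r of 0.869 to 0.902 with the scanner ratios), its column medians were 0.00072, -0.0106, -0.015 and -0.0115, and its normalization and centring are not given in the sources used here.

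Spots were corrected with limma 3.58.1 in R 4.3.3 (normexp, offset 50, then loess with control spots at weight 0). On DAPT 2, 13 debris spots with a background over 5 times the array median were left out first. Spots were averaged per probe, and the brightest probe with a red signal well above background in both samples of at least 1 group stood for its gene. Groups were compared with lmFit and eBayes, with 2 residual degrees of freedom and, for the ratios, 10.49 prior ones drawn from all genes. The p-values were adjusted by Benjamini-Hochberg over 21477 genes, with 0.05 as threshold. Single channels were fitted after Aquantile adjustment. Members past the threshold are given with every array, and the 2 with the largest t in classes with none. Of the further genes, at most the 12 with the smallest p are named, and some items are not reported here. The fit was tested on simulated data. The median signals were used because the files used here give no mean signals. The number of arrays limits the precision.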

Additional observations from a re-analysis of the deposited data

How the results depend on the processing

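Alternatives changed how many members fell, of 11 in the values reported: 1 with processed intensities, 1 with median centring, 21 with scale normalization between arrays, 0 in the sphere channel alone (red signal, quantile-normalized between arrays), 0 with debris spots kept, 0 with marked spots left out (only 4 members could be tested) and 16 with the replicate block. The share of all genes lower was 1.03% with processed intensities, 2.45% with median centring, 4.54% with scale normalization and 5.52% with the block. The members' shares in these settings were 2.17%, 2.17%, 45.7% and 34.8%. The count was 12 with a filter on all 4 arrays (26.1%, beside 4.56% of all genes lower). It was 11 without a filter (23.9%, beside 2.58%). With every probe on its own it was 13 (28.3%, beside 4.32%). The authors' value table gave 11 (23.9%, beside 3.8%). The count also moved when 1 array was left out, which leaves 1 sample in a group, and was smallest without vehicle 2. The members' median was then -0.70 without vehicle 1, -0.45 without vehicle 2, -0.53 without DAPT 1 and -0.57 without DAPT 2.

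Further genes that fell, 14 as reported, numbered 0 with processed intensities and 6 with median centring (5.66%). They numbered 0 in the sphere channel alone, with marked spots left out and with debris spots kept. The shares of all genes lower in these 5 settings were 1.03%, 2.45%, 0%, 2.47% and 0.372%. Further genes that rose, 0 as reported, numbered 1 with processed intensities, 2 with median centring, 1 with scale normalization, 1 with the filter on all 4 arrays, 1 with the authors' table and 2 with the block. Leaving out 1 array gave 9 to 14 lower and 0 to 3 higher.

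Over all genes, 858 lower and 607 higher became 221 and 105 with processed intensities, 527 and 1216 with median centring (69.8% of calls higher against 41.4%), 974 and 369 with scale normalization (27.5% higher), 0 and 0 in the sphere channel alone (1107 and 1351 at an unadjusted p under 0.05 in limma's test), 179 and 291 with marked spots left out (61.9% higher), and 80 and 4 with debris spots kept. The direction of Hexa turned to 0.03 in the sphere channel alone. With marked spots left out another probe stood for Ctsb (0.31) and Scarb2 (0.13). The causes were not tested.

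The replicate numbers were not shown to pair the samples, since the deviations of vehicle 1 and DAPT 1 correlated at 0.0857. With the block on these numbers, 1184 genes were lower and 873 higher. The slide and the scan as a block were not run, because all arrays share 1 of each.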
